A study of Mus musculus with 8 samples.

Results

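The potassium channel genes of the mouse striatum were followed over cell types and over 8 inbred strains. Members were all genes whose symbol starts with Kcn and that had at least 200 counts over the annotated nuclei, which gave 78 of the 99 genes with such a symbol and of 32285 genes in all. The members nearest the threshold were Kcns3, Kcnmb3 and Kcns1, with 228, 266 and 302 counts. Kcnv2, Kcnk5 and Kcnab3os lay just below it, with 171, 160 and 142 counts. No contrast between cell types or strains entered the choice. By role the 78 comprised 14 voltage-gated subunits of the Kcna to Kcnd families and 13 of the Kcnq and Kcnh families. There were 8 modifier subunits and 9 auxiliary subunits or regulators. A further 10 were subunits of calcium- or sodium-activated channels, counting their relative Kcnu1. The others were 11 inward rectifiers, 10 tandem-pore leak channels and 3 noncoding or antisense RNAs.

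Potassium channels let potassium leave the cell and so set the resting potential, end the action potential and space the spikes of a train. Striatal projection neurons are known for a very negative resting potential held by inward rectifiers of the Kcnj family, and for a slow approach to threshold shaped by A-type channels, built from Kcnd pores and Kcnip subunits, and by Kcna channels. The M current of Kcnq channels and the currents of calcium-activated Kcnma1 and Kcnn channels restrain firing, Kcnc channels serve fast-spiking interneurons, and Kcnj10 takes up potassium in glia.

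The striatum is the input nucleus of the basal ganglia, and frozen tissue of 32 mice aged 12 weeks was used. Nuclei were taken through the 10x Genomics Multiome assay, which reads RNA and open chromatin from the same nucleus. The strains were 129S1/SvImJ, A/J, C57BL/6J, CAST/EiJ, NOD/ShiLtJ, NZO/H1LtJ, PWK/PhJ and WSB/EiJ, with 4 mice each and no treatment named. Each of 4 batches pooled nuclei of 1 mouse per strain, with 4 male and 4 female mice per batch, so a mouse was identified by its batch and strain. The deposited table of nuclei spells the sixth of these strains NZO/HlLtJ and writes C57BL/6NJ where the labels write C57BL/6J, and the labels' names are used here. The sex of single mice was not used here. WSB/EiJ, PWK/PhJ and CAST/EiJ are wild-derived strains.

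Of 89339 barcodes, 55672 nuclei carried 1 of the authors' 18 cluster names and were analysed, with 944 to 4416 nuclei and 3785535 to 23245935 counts (unique molecular identifiers, UMIs) per mouse. Batch 3 stood apart, with a median of 3232 UMIs per nucleus against 4593 to 4931 in the other batches, and 48.5% of its barcodes annotated against 67.0% to 68.2%. The same 1517 barcode sequences occurred in more than 1 batch and marked 3048 nuclei, which were kept apart by batch. Marker genes did not follow every cluster name. The mural cluster held a summed level of 10 projection neuron markers of 4265 ± 624 CPM (counts per 1000000 counts of a cluster, mean ± SD over 4 batches), beside 4290.2 ± 1070.5 CPM of 5 mural markers. In Drd1+ neurons the projection neuron markers summed to 4894 ± 92.5 CPM. Endothelium, Ependyma and Polydendrocyte/Oligodendrocyte held 2630.4 ± 1234, 2162 ± 312 and 1624 ± 463 CPM of them, and oligodendrocytes 741 ± 162 CPM. The 3 ependyma and choroid plexus markers, Foxj1, Ttr and Folr1, summed to 323 ± 117 CPM in Ependyma, 275 ± 241 in macrophages and 39062 ± 29304 in Unknown_2. The sum does not separate the 3 genes, so it does not show how far Ependyma held ependyma markers. The 5 oligodendrocyte markers summed to 1197 ± 58.2 CPM in Drd1+ neurons, 3925 ± 319.7 in astrocytes and 21051 ± 2006 in oligodendrocytes, and the part of free RNA in low levels of a member was not tested.

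The start sites of 3 members that the results turn on are shown first. RefSeq promoters on build GRCm38.p6, from 250 bases before to 50 after a start site, were held for 56 of the 78 members, in 79 entries. Of these 56 members, 38 (67.9%) had a promoter that overlapped an accessible region in the authors' deposited list of 291715 regions, against 55.1% of 27025 genes. By entries these shares were 62.0% of 79 and 53.1% of 32851. The dinucleotide CG, which reads the same on both strands and occurred in 94.6% of all promoters, was searched in them. Member promoters that overlapped a region had a median of 12 CG, and the others 9, against 17 and 3 over all promoters. These are descriptions of letters and of listed regions, which carry no level per strain here. The sequences below run 5′ to 3′ on the gene's strand, with CG in capitals. Kcnq5 and Kcnma1 are shown for their differences between strains, and Kcnip2 as a subunit of the A-type channel. The upstream start of Kcnq5 held 3 CG and overlapped no listed region, while the downstream start held 20 CG and overlapped 1. The promoters of Kcnma1 and Kcnip2 held 36 and 18 CG and overlapped 1 region each.
Kcnq5, upstream start (chr1:21962601-21962900, minus strand): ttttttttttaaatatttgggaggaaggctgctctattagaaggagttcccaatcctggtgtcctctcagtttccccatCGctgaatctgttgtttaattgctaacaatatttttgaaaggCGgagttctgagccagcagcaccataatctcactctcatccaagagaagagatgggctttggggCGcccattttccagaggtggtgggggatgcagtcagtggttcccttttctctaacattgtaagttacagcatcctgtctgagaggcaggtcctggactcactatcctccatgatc
Kcnq5, downstream start (chr1:21961893-21962192, minus strand): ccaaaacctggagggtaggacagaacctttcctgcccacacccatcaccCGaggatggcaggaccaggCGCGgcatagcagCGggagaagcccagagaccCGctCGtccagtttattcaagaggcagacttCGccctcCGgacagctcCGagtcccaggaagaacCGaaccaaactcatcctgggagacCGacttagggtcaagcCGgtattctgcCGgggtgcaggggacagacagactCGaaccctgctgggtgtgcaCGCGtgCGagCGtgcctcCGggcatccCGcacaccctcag
Kcnma1 (chr14:24004156-24004455, minus strand): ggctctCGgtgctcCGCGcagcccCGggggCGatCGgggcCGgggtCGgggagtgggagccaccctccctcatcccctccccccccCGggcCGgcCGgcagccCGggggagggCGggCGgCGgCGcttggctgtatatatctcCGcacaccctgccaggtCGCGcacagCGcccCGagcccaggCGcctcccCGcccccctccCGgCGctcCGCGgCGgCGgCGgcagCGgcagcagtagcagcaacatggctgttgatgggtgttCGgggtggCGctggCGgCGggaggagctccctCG
Kcnip2 (chr19:45816014-45816313, minus strand): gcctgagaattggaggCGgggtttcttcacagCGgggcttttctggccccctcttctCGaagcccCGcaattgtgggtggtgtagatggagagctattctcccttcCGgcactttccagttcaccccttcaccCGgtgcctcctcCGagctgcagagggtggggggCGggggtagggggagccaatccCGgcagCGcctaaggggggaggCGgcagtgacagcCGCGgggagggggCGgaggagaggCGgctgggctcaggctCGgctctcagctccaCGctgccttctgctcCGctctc

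Most potassium channel genes were highest in a neuronal cluster. Of the 78 members, 47 (60.3%) had their highest mean level in 1 of the neuronal clusters, against 24.3% of the 17057 genes with at least 200 counts. The authors made the clusters from the RNA of these nuclei, so levels between clusters are described with no test. For 22 of the 78 members the 4 batches of the highest cluster lay above all 4 of the second, as they did for 21.1% of the 17057 genes. Levels are compared within a gene only, since CPM are not per length. Over the 78 members the log10 of total counts and of gene length, 1.45 to 1136 kb, had a Pearson r of 0.62 and a Spearman rho of 0.57, a description across genes that share all libraries.

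**Figure D1:**
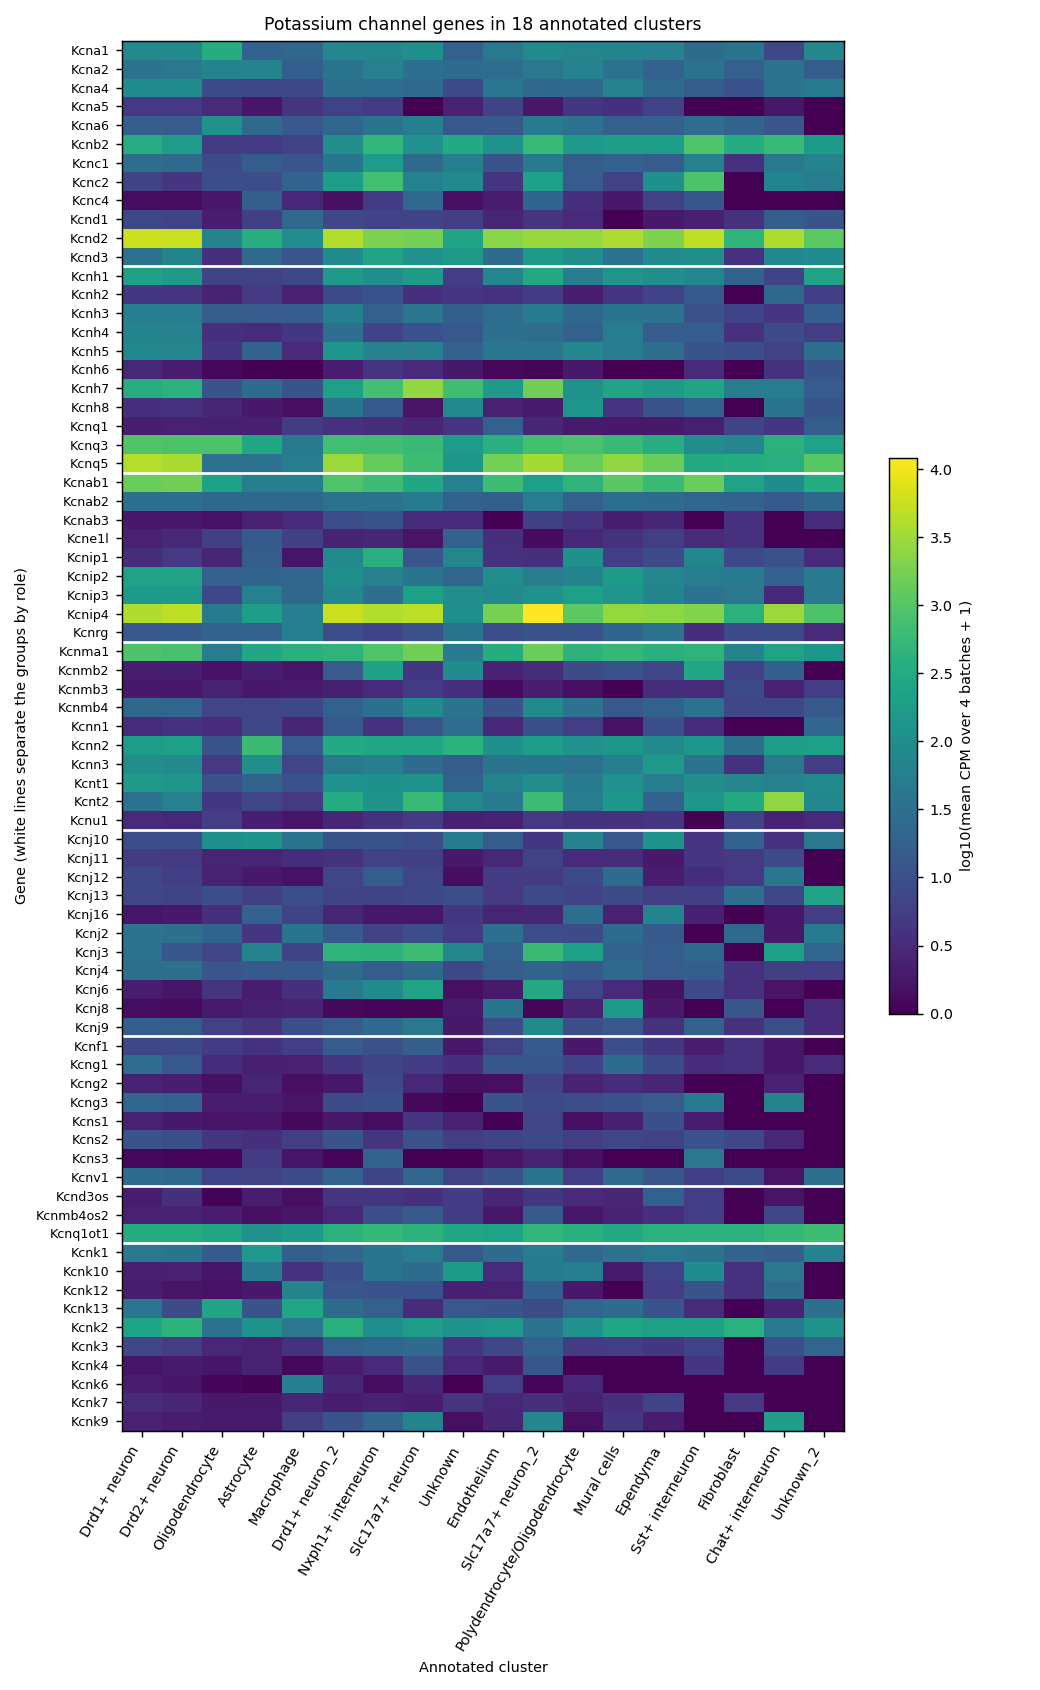
Mean level of the members reported here (rows, grouped by role) in the 18 annotated clusters (columns), as log10 of the mean CPM over 4 batches plus 1. Kcnd2, Kcnq5 and Kcnip4 form bright rows over most neuronal clusters, while Kcnk6, Kcnj8 and Kcnk12 are bright in few columns.

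Among the inward rectifiers, the classical subunits of projection neurons, Kcnj2 and Kcnj4, were at 34.8 ± 1.61 and 31.00 ± 1.85 CPM in Drd1+ neurons and at 31.4 ± 0.790 and 30.7 ± 1.79 CPM in Drd2+ neurons. Kcnj2 was as high in macrophages, at 37.6 ± 9.56 CPM. The G protein-gated subunits, which carry the inhibition by many neurotransmitter receptors, were highest in the glutamatergic Slc17a7+ clusters. Kcnj3 reached 649 ± 111 CPM in Slc17a7+ neurons, 613 ± 96.6 in Slc17a7+ neuron_2, and 33.2 ± 8.10 in Drd1+ neurons. Kcnj6 and Kcnj9 reached 289 ± 13.5 and 84.9 ± 11.8 CPM in Slc17a7+ neuron_2. Kcnj10, the main potassium uptake channel of glia, was at 130.3 ± 12.1 CPM in astrocytes, 122 ± 15.6 in Ependyma and 112 ± 10.3 in oligodendrocytes, and the batches of Ependyma overlapped those of both others. Kcnj16, its partner, was highest in the cluster named Ependyma, at 68.2 ± 9.19 CPM, above 28.9 ± 3.41 in Polydendrocyte/Oligodendrocyte. Kcnj8, a pore of the ATP-sensitive channel of vascular muscle and pericytes, stood at 156 ± 53.6 CPM in mural cells and 36.96 ± 30.2 in endothelium. Kcnj11, the other such pore, peaked at 7.47 ± 5.21 CPM and Kcnj12 at 39.2 ± 9.61 CPM, both in Chat+ interneurons. Kcnj13, a channel of epithelia such as the choroid plexus, had its highest mean in Unknown_2, a cluster of 57 nuclei, where the batches read 412, 0, 81.04 and 402 CPM from 69 counts. That cluster was the one high in the summed ependyma and choroid plexus markers.

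The Kcnd pores and Kcnip subunits did not all have the same highest cluster. Kcnd2, the pore, was at 5977 ± 357 CPM in Drd1+ and 5498 ± 348 in Drd2+ neurons, with overlapping batches. Kcnip2 was at 226 ± 8.45 and 221 ± 8.76 CPM. Kcnip4 reached 12134 ± 655 CPM in Slc17a7+ neuron_2, and the next cluster, Drd1+ neuron_2, stood at 5701 ± 402. Kcnip1 was instead an interneuron gene, at 384 ± 76.1 CPM in Nxph1+ interneurons and 111 ± 41.7 in the next cluster. Kcnd3 peaked in the same interneurons at 239 ± 36.4 CPM, and Kcnd1 in macrophages at 25.2 ± 1.75 CPM. Kcnip3, which also acts as a transcriptional repressor, was at 203 ± 17.7 CPM in Slc17a7+ neurons and 198 ± 44.4 in Polydendrocyte/Oligodendrocyte, with overlapping batches.

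The Kcna subunits fell into neuronal and glial genes. Kcna4 was at 92.8 ± 4.65 and 92.1 ± 4.15 CPM in Drd2+ and Drd1+ neurons, and the beta subunit Kcnab1 at 1557 ± 41.7 and 1477 ± 67.4 CPM. Kcna1 and Kcna6 were highest in oligodendrocytes, at 332 ± 68.7 and 118 ± 13.1 CPM, while Kcna2 stood at 66.5 ± 2.53 in astrocytes and 65.01 ± 6.44 in oligodendrocytes. Kcnb2, a slow delayed rectifier, was at 911 ± 194 CPM in Sst+ interneurons. Among the fast Kcnc channels, Kcnc2 was at 865 ± 155 CPM in Sst+ and 728 ± 158 in Nxph1+ interneurons, and Kcnc1 at 181 ± 31.9 CPM in Nxph1+ interneurons. In Drd1+ neurons these levels were 5.98 ± 0.980 and 29.1 ± 0.813 CPM. Kcnc4 peaked at 23.9 ± 5.53 CPM in Slc17a7+ neurons, and Kcna5 showed no cluster apart from the next. Kcnab2, Kcnab3, Kcnrg and Kcne1l reached at most 56.8 CPM, the level of Kcnrg in macrophages.

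The M-current gene Kcnq5 stood at 4287 ± 96.5 CPM in Drd1+ and 3647 ± 119 in Drd2+ neurons, with batches that did not overlap. Kcnq3, its partner, was at 945 ± 54.9 CPM in Drd1+ neurons and 877 ± 36.4 in oligodendrocytes. Kcnq1, a channel of epithelia and heart, peaked in endothelium at 17.8 ± 3.16 CPM. Of the Kcnh family, Kcnh7 was at 2679 ± 443 CPM in Slc17a7+ neurons and Kcnh5 at 139.9 ± 34.3 in Drd1+ neuron_2, both apart from the next cluster. Kcnh8 stood apart in Polydendrocyte/Oligodendrocyte at 136 ± 37.2 CPM. Kcnh1 was at 307 ± 8.99 CPM in Slc17a7+ neuron_2, Kcnh2 at 21.8 ± 8.18 in Chat+ interneurons, Kcnh3 at 56.03 ± 7.38 in Drd1+ neuron_2 and Kcnh4 at 68.6 ± 3.10 in Drd1+ neurons. Kcnh6 had its highest mean in Unknown_2, at 10.5 ± 20.95 CPM from 1 count.

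Among the activated channels, the sodium-activated Kcnt2 stood apart in Chat+ (cholinergic) interneurons, at 2572 ± 333 CPM against 624 ± 26.2 in Slc17a7+ neuron_2. Its relative Kcnt1 was at 153 ± 11.9 CPM in Drd1+ and 146 ± 11.9 in Drd2+ neurons. Kcnma1, the pore of the large-conductance calcium-activated channel, was at 1559.6 ± 89.7 CPM in Slc17a7+ neurons, 852 ± 48.4 in Drd1+ neurons and 52.97 ± 11.6 in oligodendrocytes. Its beta subunits differed, with Kcnmb2 at 251 ± 59.5 CPM in Sst+ interneurons and Kcnmb4 at 93.4 ± 25.1 in Slc17a7+ neurons. The small-conductance Kcnn2 was highest in astrocytes at 605 ± 84.4 CPM, Kcnn3 in the cluster named Ependyma at 153 ± 38.1, and Kcnn1 in Unknown at 27.3 ± 4.64. Kcnmb3 and Kcnu1 stayed below 10 CPM in every cluster.

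Leak channels, which are open at rest, had peaks in glia as well as in neurons. Kcnk6 and Kcnk12 were apart in macrophages, at 55.3 ± 11.5 and 66.7 ± 13.3 CPM, and Kcnk6 reached only 4.63 ± 1.51 CPM in endothelium, the next cluster. Kcnk13, the halothane-inhibited channel of microglia, was at 253 ± 13.2 CPM in macrophages and 238 ± 10.1 in oligodendrocytes. Kcnk1 was highest in astrocytes at 150.0 ± 24.3 CPM and Kcnk10 in Unknown at 165 ± 25.00, both apart from the next. Kcnk2, a mechanosensitive channel, was at 443 ± 59.8 CPM in Drd2+ neurons and 402 ± 74.5 in fibroblasts, with overlapping batches. Kcnk9 was highest in Chat+ interneurons, at 184 ± 57.6 CPM. Kcnk3 and Kcnk4 peaked in the Slc17a7+ clusters at 25.9 ± 5.19 and 11.3 ± 4.78 CPM, and Kcnk7 stayed at 5.74 CPM or less. Of the modifier subunits, which open only beside Kcnb pores, Kcns3 was at 40.6 ± 13.6 CPM in Sst+ interneurons on 31 counts and Kcng3 at 66.4 ± 23.4 in Chat+ interneurons. Kcnf1 reached 16.4 ± 2.05 CPM in Slc17a7+ neurons, Kcns2 10.3 ± 1.47 in Drd1+ neuron_2, Kcng1 28.2 ± 2.63 in Drd1+ neurons and Kcnv1 36.00 ± 12.1 in Slc17a7+ neuron_2. Kcng2 and Kcns1 stayed below 10 CPM. Of the noncoding RNAs, Kcnq1ot1, made at the imprinted locus of Kcnq1, was at 552 ± 106 CPM in Nxph1+ interneurons, Kcnd3os at 17.8 ± 8.65 in the cluster named Ependyma and Kcnmb4os2 at 13.4 ± 3.56 in Slc17a7+ neuron_2.

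Neuronal channels were also counted in non-neuronal clusters. In mural cells, Kcnd2 was at 3748 ± 522 and Kcnq5 at 2519.8 ± 180.0 CPM, and in endothelium at 2309 ± 1017 and 1679.8 ± 756 CPM. In oligodendrocytes they were at 67.03 ± 19.7 and 34.99 ± 9.36 CPM. Both clusters also held the summed projection neuron markers given above, at several times the level in oligodendrocytes, and the part of neuronal RNA in these channel levels was not tested.

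Within mice, Drd1+ and Drd2+ neurons were similar for most members. Of 41 members at 10 CPM or more, 8 lay on the same side in all 32 mice, against 4.70% of 8957 genes. Because the clusters were built from this RNA, no test is given. In Drd1+ neurons, the leak channel Kcnk13 was at 38.9 CPM and in Drd2+ neurons at 7.76, a log2 ratio of Drd2+ over Drd1+ of -2.20 ± 0.56 (SD over mice). The other 4 on the Drd1+ side were Kcng1 (-1.13 ± 0.43), Kcnb2 (-0.998 ± 0.21), Kcnh1 (-0.40 ± 0.13) and Kcnq5 (-0.26 ± 0.09). On the Drd2+ side were Kcnd3 (1.12 ± 0.25), Kcnk2 (0.96 ± 0.24) and Kcnip4 (0.29 ± 0.11). The pore Kcnd2 had a ratio of -0.12 ± 0.06 and was higher in Drd1+ neurons in 31 of 32 mice. Kcnt2 was higher in Drd2+ neurons in 31 of 32 mice (0.92 ± 0.57) and Kcnj3 in Drd1+ neurons in 29 (-1.28 ± 0.94). Kcnip2, Kcna4, Kcnj4 and Kcnip3 had mean ratios within a few hundredths of 0.

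**Figure D2:**
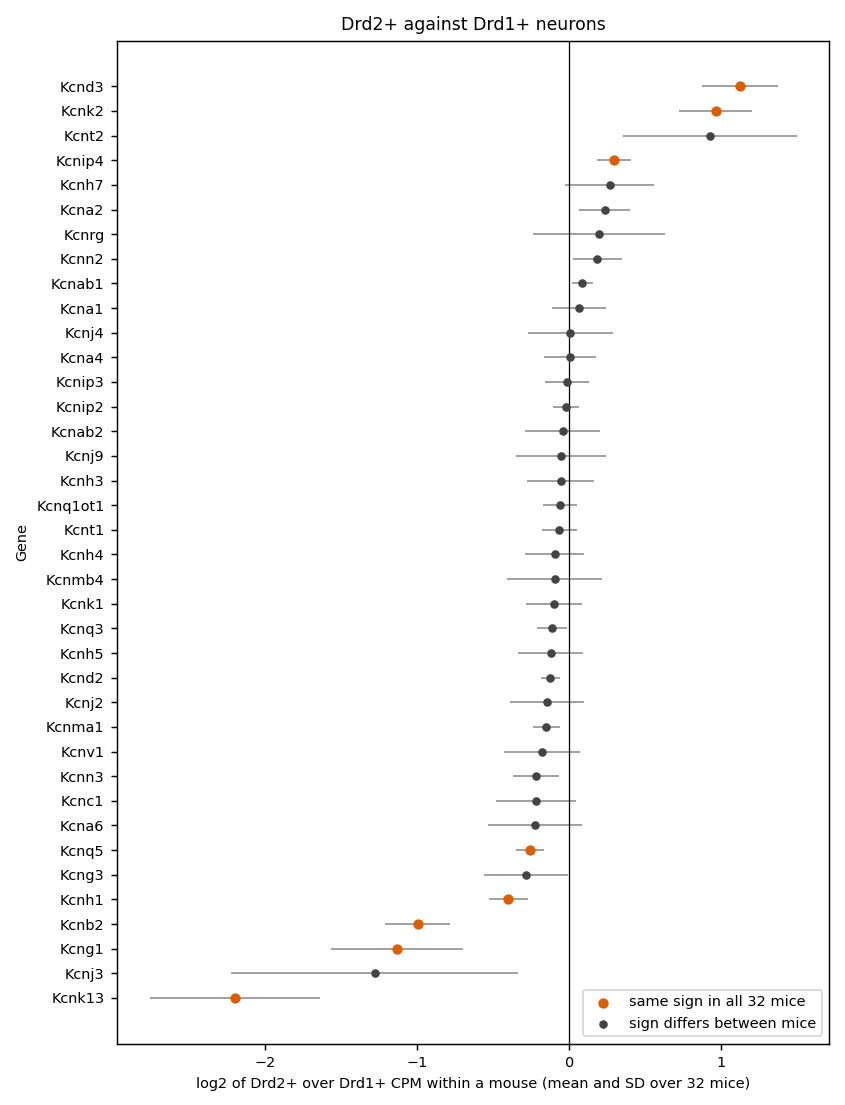
Log2 ratio of Drd2+ over Drd1+ CPM within a mouse, mean (dots) and SD (bars) over 32 mice, for members at 10 CPM or more. Orange marks the 8 members with the same sign in all mice, from Kcnk13 at -2.20 to Kcnd3 at 1.12.

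How far channel expression depends on genetic background was asked within each cluster. Counts were summed per mouse and cluster, and the strain term was tested with edgeR over all genes of the cluster (quasi-likelihood, Benjamini-Hochberg, called at an adjusted p under 0.05). Its p-values judge differences between strains against the spread of mice within strains, with the batch as a block. In Drd1+ neurons, 45 of 58 members tested were called, where 61.7% of all 13431 genes were. Drd2+ neurons had 38 of 55, against 55.9% of all genes, and Drd1+ neuron_2 19 of 36, against 17.3%. Astrocytes had 15 of 30 (21.5% of all genes), oligodendrocytes 11 of 24 (34.8%) and macrophages 3 of 8 (24.8%). In Nxph1+ interneurons, endothelium and Polydendrocyte/Oligodendrocyte 1 member each was called, of 29, 19 and 16, against 1.53%, 3.23% and 1.24% of all genes. These shares describe the members beside all genes and were not compared by a test. The filter on low counts kept 5 to 12 members per cluster that passed it in a minority of mice, 7 of the 58 in Drd1+ neurons, and for these a difference between strains follows from how they entered. Among the members that passed it in at least 50% of the mice, 38 of 51 were called in Drd1+ neurons, 35 of 48 in Drd2+ neurons and 16 of 26 in Drd1+ neuron_2. The same counts were 11 of 18 in astrocytes, 9 of 18 in oligodendrocytes and 1 of 3 in macrophages. They were 1 of 21 in Nxph1+ interneurons, 1 of 11 in endothelium and 0 of 9 in Polydendrocyte/Oligodendrocyte. The shares of all genes were not split in this way. A level sums over nuclei, and whether fewer nuclei held the RNA or each held less was not tested. Median fitted spans between the highest and lowest strain in Drd1+ neurons were 0.713 on the log2 scale over the 58 members and 0.647 over all genes. Without batch 3, the shallower one, the strain term called 41 members in Drd1+ neurons, 34 in Drd2+ neurons, 15 in astrocytes, 10 in oligodendrocytes and 3 in macrophages.

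By role, the 38 calls among these 51 members in Drd1+ neurons are described beside the 61.7% of all genes called there, and roles were not compared by a test. That share was not split by the filter, and the member count on the same footing is 45 of 58. The 38 calls comprised 6 of 6 auxiliary subunits, 6 of 6 calcium- or sodium-activated subunits, 7 of 8 Kcnq and Kcnh genes and 10 of 13 Kcna to Kcnd genes. The others were 3 of 4 leak channels, 3 of 5 modifiers, 3 of 8 inward rectifiers and 0 of 1 noncoding RNA. The further 7 members, which passed the filter in fewer mice, included Kcnmb3 and Kcnu1 (4 mice each) and Kcnip1 (7 mice). The inward rectifiers called were Kcnj3, Kcnj9 and Kcnj4. Kcnj4 was at an adjusted p of 0.040 in edgeR and up to 0.38 over its alternatives, and Kcnj2 was not called (0.12). Among members that passed the filter in at least 50% of the mice, 30 of 38 calls in Drd1+ neurons held over all alternatives, 26 of 35 in Drd2+ neurons, 9 of 11 in astrocytes and 7 of 9 in oligodendrocytes. In macrophages the 1 such call, of Kcnma1, held.

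Of the 58 members, Kcnq5, a pore of the M current, had the largest F for the strain term in Drd1+ neurons. Its level there in the 4 mice of NZO/H1LtJ was 8360.3, 8220.2, 6741 and 7303 CPM, and in the other 28 mice it was 3181 to 4399 CPM with a median of 3885. The 4 mice thus lay above all others, at a log2 difference from the mean of the other 7 strains of 0.99 ± 0.04 (SE; edgeR adjusted p = 1.7e-24). In Drd2+ neurons the NZO/H1LtJ mice were at 8041, 7539.7, 6214 and 6758 CPM, and the others at 2759 to 3720.4 CPM with a median of 3138. In Drd1+ neuron_2 they were at 5621, 6027, 4783 and 6305 CPM, and the others at 1869.9 to 3061 CPM with a median of 2509. The groups did not overlap in any of these 3 neuronal clusters (edgeR adjusted p of the strain term 4.7e-22, 3.4e-23 and 6.1e-20). In endothelium, where neuronal markers were also counted, the 4 mice were at 2251, 2399.5, 5868 and 3771 CPM and overlapped the others (377 to 3058 CPM with a median of 1127). The strain term called this too (edgeR adjusted p = 0.0015), but without the batch as a block its adjusted p was 0.15. The projection neuron markers summed to 4092 to 5549 CPM over strains in Drd1+ neurons, with the lowest mean, 4092 ± 337, in NZO/H1LtJ.

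**Figure D3:**
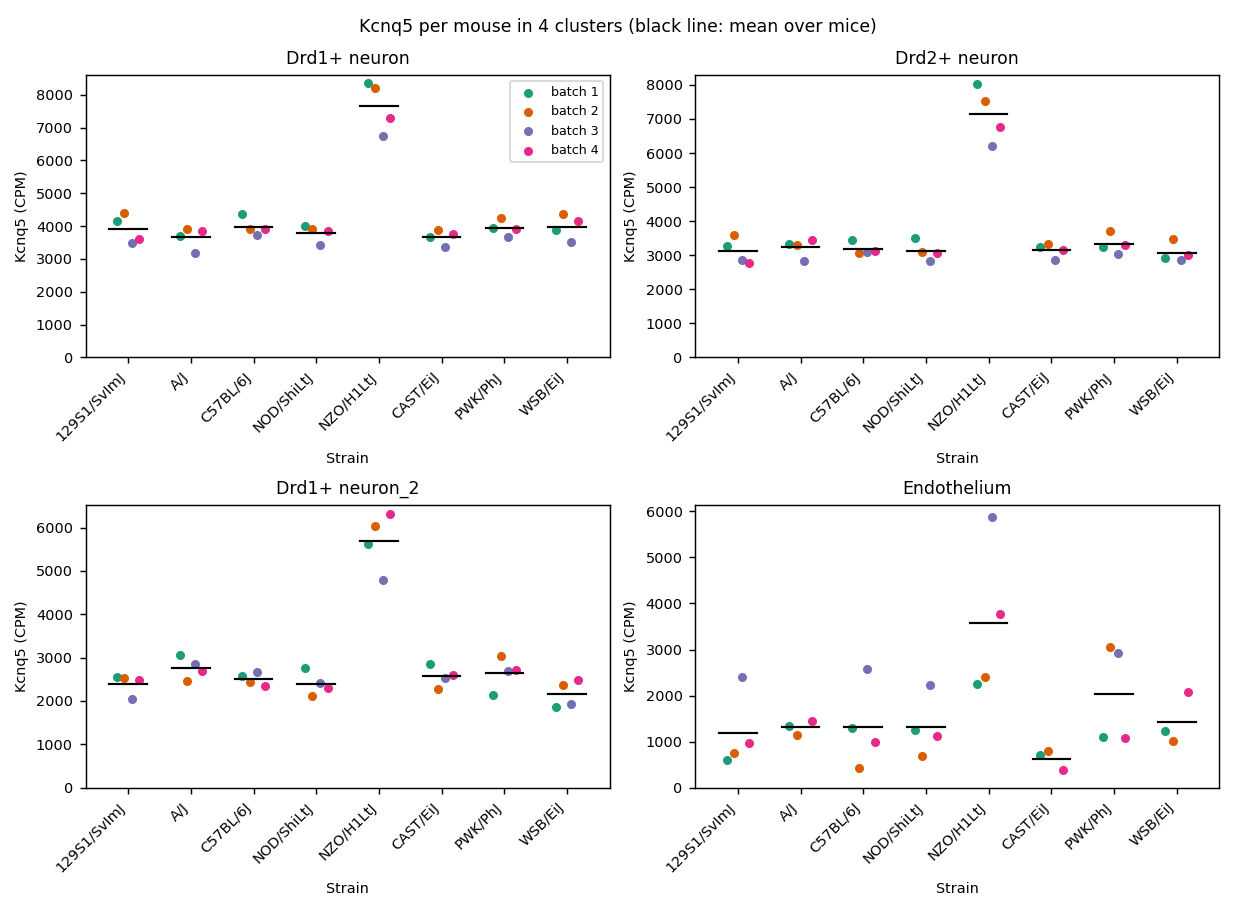
Kcnq5 level (CPM, linear axis from 0) of each mouse by strain in 4 clusters, coloured by batch, with the mean over mice as a black line. In the 3 neuronal clusters all 4 NZO/H1LtJ mice lie above the other strains, and in endothelium they overlap them.

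Of the A-type genes tested in Drd1+ neurons, the strain term called Kcnd2 and Kcnd3 but not Kcnd1 (edgeR adjusted p = 0.34), and it called Kcnip2, Kcnip3 and Kcnip4. Kcnip1 was called as a member that passed the filter in 7 mice. Kcnip3 was lowest in NZO/H1LtJ, at 89.4, 90.2, 85.7 and 102 CPM in Drd1+ neurons, below all other 28 mice (105 to 286 CPM with a median of 159.8). It was highest in WSB/EiJ, at 209, 285, 286 and 276 CPM, and in CAST/EiJ, at 255 ± 11.8 CPM (mean ± SD over 4 mice, as below). The log2 difference from the other strains was -0.93 ± 0.08 for NZO/H1LtJ and 0.80 ± 0.07 for WSB/EiJ (edgeR adjusted p = 3.8e-11 and 1.5e-11). Kcnip2 was highest in CAST/EiJ, at 326, 344, 406 and 368 CPM, above the other 28 mice (143 to 286 CPM with a median of 211). Its lowest strain was again NZO/H1LtJ, at 159 ± 18.5 CPM. Kcnip4 ranged from 3168 ± 102 CPM in NOD/ShiLtJ to 5008 ± 809 in CAST/EiJ, with overlapping mice. The pore Kcnd2 varied less, from 5118 ± 525 CPM in PWK/PhJ to 6765 ± 652 in CAST/EiJ. Kcnd3 ran from 15.9 ± 3.83 CPM in PWK/PhJ to 45.8 ± 3.25 in C57BL/6J. In Drd2+ neurons Kcnip3 was again lowest in NZO/H1LtJ (89.8 ± 15.3 CPM) and Kcnip2 highest in CAST/EiJ (353 ± 32.6 CPM). The edgeR adjusted p of the strain term in Drd1+ neurons was 2.7e-16 for Kcnip3, 5.4e-17 for Kcnip2, 1e-05 for Kcnip4, 1.6e-06 for Kcnd2 and 3.1e-06 for Kcnd3.

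Of the calcium- and sodium-activated channels, Kcnn2 and Kcnt2 varied by 3.50 and 4.45-fold between the highest and lowest strain in Drd1+ neurons. Kcnn2, a small-conductance channel of the afterhyperpolarization, was lowest in PWK/PhJ, at 80.6, 74.02, 60.7 and 64.2 CPM in Drd1+ neurons. In the other 28 mice it was 80.6 to 307 CPM with a median of 179.9, and the lowest of these, an NZO/H1LtJ mouse, was level with the highest PWK/PhJ mouse. CAST/EiJ, A/J and 129S1/SvImJ were highest, at 245 ± 52.8, 242 ± 58.7 and 231 ± 45.05 CPM, 3 strains that overlapped. Kcnt1 was lowest in NZO/H1LtJ, at 85.5, 113, 96.2 and 96.98 CPM, below the other 28 (120.1 to 226 CPM with a median of 160.3). Kcnt2 ran from 13.4, 15.5, 13.97 and 10.2 CPM in CAST/EiJ to 77.5, 59.7, 35.1 and 63.2 in NOD/ShiLtJ. Kcnma1 was among the members with the smallest spread, from 751 ± 53.1 CPM in PWK/PhJ to 896 ± 32.8 in WSB/EiJ. Its call (edgeR adjusted p = 0.027) was lost without the block or without batch 1, 2 or 4 (up to 0.39). Kcnmb4, its beta subunit, ran from 15.9 ± 2.47 CPM in A/J to 25.5 ± 3.23 in NZO/H1LtJ. For Kcnn2, Kcnt1, Kcnt2 and Kcnmb4 the edgeR adjusted p was 6.4e-11, 7.6e-13, 7.1e-08 and 0.0052.

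Several voltage-gated pores had their highest mean in CAST/EiJ or their lowest in PWK/PhJ. Kcnh7, a channel of the erg family, was at 687, 727, 769 and 657 CPM in Drd1+ neurons of CAST/EiJ, above all others (160.1 to 492 CPM with a median of 308), and lowest in NOD/ShiLtJ at 193 ± 32.3. Kcna6 was at 29.4, 29.6, 30.1 and 29.6 CPM in CAST/EiJ, again above the other 28 mice (8.80 to 20.4 CPM with a median of 15.3), and at 10.02 ± 0.276 in A/J. Kcnh5, of the eag family, went the other way, from 45.7 ± 8.04 CPM in CAST/EiJ to 110.3 ± 25.1 in A/J. Kcnb2 was lowest in PWK/PhJ, at 173, 199, 172 and 239 CPM, and highest in C57BL/6J, at 411, 519, 443 and 514, without overlap between these strains. Kcnq3 ran from 778 ± 45.9 CPM in WSB/EiJ to 1162 ± 84.5 in CAST/EiJ. Kcnc2, at low level, was at 9.71, 18.99, 23.1 and 15.4 CPM in CAST/EiJ and 1.53 to 9.06 CPM with a median of 4.33 elsewhere. The edgeR adjusted p of the strain term was at most 5.2e-07 for Kcnh7, Kcna6, Kcnh5, Kcnb2, Kcnq3 and Kcnc2. Kcna4, Kcna2 and Kcnc1 varied by 1.30, 1.35 and 1.45-fold between the highest and lowest strain (edgeR adjusted p = 0.00064, 0.012 and 0.0090), and the calls of Kcna2 and Kcnc1 were lost in some batch left out. The beta subunit Kcnab1 ran from 1201 ± 189 CPM in PWK/PhJ to 1695 ± 202 in A/J (edgeR adjusted p = 2.4e-05).

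Among the remaining channels, the G protein-gated Kcnj3 had the largest ratio of highest to lowest strain mean in Drd1+ neurons among members with a mean of 10 CPM or more. Its level was 46.6, 47.1, 49.4 and 51.6 CPM in C57BL/6J, the strain with the highest mean. These mice overlapped the other 28, which ran from 6.12 to 82.4 CPM with a median of 23.1. Kcnj3 read 6.12, 8.95, 7.54 and 6.72 CPM in the PWK/PhJ mice, and the CAST/EiJ mice had 10.8, 9.01, 7.52 and 8.53 CPM. The PWK/PhJ and CAST/EiJ mice lay below all C57BL/6J mice (edgeR adjusted p of the strain term = 5.1e-06). Its partner Kcnj9 was lowest in CAST/EiJ, at 7.86 ± 1.99 CPM, and highest in NZO/H1LtJ at 21.1 ± 5.00 (edgeR adjusted p = 9.4e-07). Kcnj6 was not tested in Drd1+ neurons, where it was at 1.13 ± 0.311 CPM over the batches. The leak channel Kcnk2 ran from 172 ± 22.6 CPM in CAST/EiJ to 333 ± 67.96 in PWK/PhJ (edgeR adjusted p = 9.5e-07). At 50 CPM or more, the members with the smallest F in Drd1+ neurons included Kcnh3, Kcnq1ot1, Kcnma1 and Kcnn3. Of these 4, Kcnh3 (49.7 to 60.1 CPM over strain means, edgeR adjusted p = 0.16) and Kcnq1ot1 (315 to 359 CPM, 0.055) were not called. Kcnn3 ran from 81.1 ± 5.12 to 117 ± 14.2 CPM (edgeR adjusted p = 0.016), a call lost without batch 1.

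**Figure D4:**
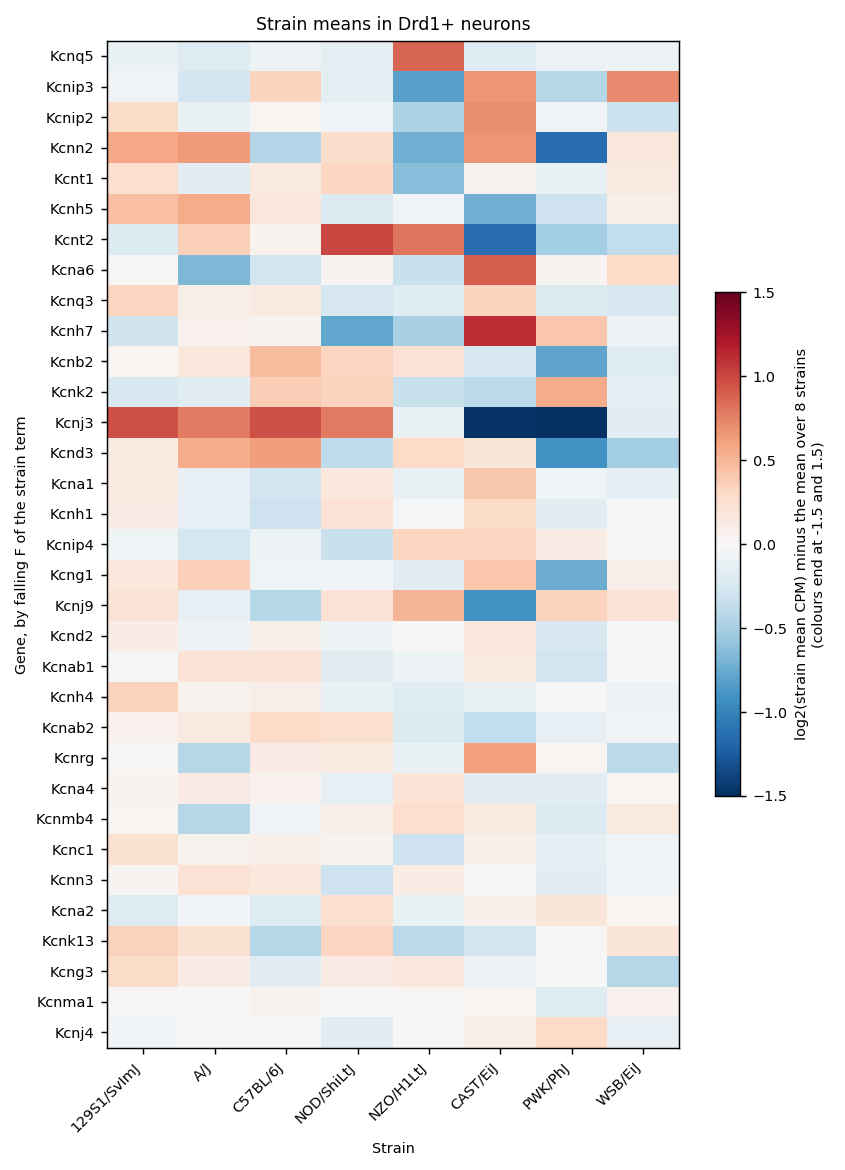
Strain means in Drd1+ neurons of called members at 10 CPM or more (rows, by falling F statistic), as log2 of the strain mean minus the mean over 8 strains, with colours ending at -1.5 and 1.5. Kcnq5 stands out in NZO/H1LtJ, Kcnh7 and Kcnip2 in CAST/EiJ, and Kcnj3 is low in CAST/EiJ and PWK/PhJ.

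To see which strain stood apart in Drd1+ neurons, 1 strain at a time was contrasted with the average of the 7 remaining ones by edgeR's quasi-likelihood test. These 8 contrasts share their mice. The 58 members include the 7 that passed the filter in a minority of mice, for which a difference follows from how they entered. The counts and medians of these contrasts were not split by this. CAST/EiJ differed in 32 of 58 members, 22 higher and 10 lower, where 32.8% of all genes were called. PWK/PhJ differed in 26, 7 higher and 19 lower, with 34.3% of all genes called. NZO/H1LtJ differed in 16 (6 higher, 10 lower), A/J in 15 (7 and 8) and NOD/ShiLtJ in 15 (10 and 5), beside 19.7%, 17.2% and 15.9% of all genes. C57BL/6J differed in 13 (8 higher, 5 lower), 129S1/SvImJ in 10 (all higher) and WSB/EiJ in 8 (2 higher, 6 lower), beside 13.9%, 12.3% and 17.0%. The count fell to 9 for A/J without batch 2, to 5 for WSB/EiJ without batch 4 and to 8 for C57BL/6J without the batch as a block. Over all 58 members the median log2 difference was 0.14 for CAST/EiJ and -0.15 for PWK/PhJ, and over all genes it lay between -0.00303 and 0.0103 in the 8 contrasts. Of the 45 called members, 17 had their highest mean in CAST/EiJ and 12 their lowest in PWK/PhJ, where 20.3% and 20.6% of all called genes did. In Drd2+ neurons 12 of 38 called members were highest in CAST/EiJ and 15 lowest in PWK/PhJ, beside 19.3% and 21.4% of all called genes. PWK/PhJ was highest there for none of the members and for 19.5% of all called genes. Of the 45 called members in Drd1+ neurons, 38 passed the filter in at least 50% of the mice, and of the 38 in Drd2+ neurons 35 did. For the others a difference follows from how they entered. Those in Drd1+ neurons include Kcnmb3, Kcnu1 and Kcnip1, all with their highest mean in CAST/EiJ. The called members with the widest differences per strain included Kcnj3 in 5 strains, at -1.65 ± 0.35 in CAST/EiJ, -2.04 ± 0.36 in PWK/PhJ, 1.10 ± 0.24 in C57BL/6J, 1.08 ± 0.23 in 129S1/SvImJ and 0.90 ± 0.22 in A/J. Without batch 4 the 129S1/SvImJ call was lost (log2 0.76, edgeR adjusted p = 0.095), and without batch 2 that of A/J (0.36, 0.45). Others were Kcnc2 in CAST/EiJ (1.80 ± 0.21), Kcnn2 in PWK/PhJ (-1.31 ± 0.12) and 129S1/SvImJ (0.65 ± 0.10), Kcna6 in A/J (-0.78 ± 0.12), and Kcnt2 and Kcnh7 in NOD/ShiLtJ (1.15 ± 0.15 and -0.89 ± 0.16). Kcnd3 was higher in C57BL/6J (0.71 ± 0.14) and lower in WSB/EiJ (-0.57 ± 0.17), the latter lost without batch 2 (edgeR adjusted p = 0.071) or batch 4 (0.11).

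Strain levels of the members in Drd2+ neurons were set beside those in Drd1+ neurons. Of the 36 members called in both, 29 had the same highest strain by fitted means and 20 the same lowest, where 66.3% and 59.6% of the 6198 genes called in both did. The 36 include Kcnip1, which passed the filter in Drd1+ neurons in a minority of mice. Its shared highest strain, CAST/EiJ, follows in part from how it entered, and the counts were not split by this. Across the 8 strain means, the median correlation between the clusters was 0.91 over these 36, a description, since the mice and pools are shared. In Drd2+ neurons Kcnn2 was lowest in PWK/PhJ (66.7 ± 12.5 CPM) and highest in A/J (277 ± 76.3 CPM). Kcnh7 ran there from 311 ± 19.99 CPM in NOD/ShiLtJ to 712 ± 24.3 in CAST/EiJ, and Kcnb2 from 87.7 ± 16.7 in PWK/PhJ to 306 ± 51.5 in C57BL/6J, the same strains as in Drd1+ neurons. Kcnq3 ran from 693 ± 120.1 CPM in PWK/PhJ to 1123 ± 106 in 129S1/SvImJ, and Kcnip4 from 4042 ± 223 in A/J to 6549 ± 918 in CAST/EiJ. The edgeR adjusted p of the strain term in Drd2+ neurons was at most 4.4e-08 for these 5 members. The interaction of strain and cluster, tested with the mouse as a block, called 12 of 60 members, where 4.58% of all genes were called (edgeR). For Kcnq5 the log2 ratio of Drd2+ over Drd1+ was -0.10 ± 0.03 in NZO/H1LtJ and -0.38 to -0.18 over the means of the other strains (edgeR adjusted p = 9.6e-09). Kcnb2 had a ratio of -0.63 ± 0.15 in C57BL/6J and -1.19 to -0.90 elsewhere (8.2e-08). Kcnt2 ran from 0.45 ± 0.24 in 129S1/SvImJ to 1.90 ± 0.31 in PWK/PhJ (0.00085), and the modifier Kcng1 from -1.70 ± 0.26 in 129S1/SvImJ to -0.58 ± 0.34 in PWK/PhJ (0.000101). Kcnh7 ran from -0.07 ± 0.15 in PWK/PhJ to 0.70 ± 0.23 in NOD/ShiLtJ (0.0055), and Kcnk2 from 0.65 ± 0.13 in NOD/ShiLtJ to 1.22 ± 0.28 in WSB/EiJ (0.0051). The call of Kcnh7 was lost in 3 of 8 alternatives (up to 0.82) and that of Kcnk2 in 4 of 8 (up to 1.0). Of the 12 calls, those of Kcnt2 and Kcng1 held in all 8 alternatives, and those of Kcnq5 and Kcnb2 were lost only without the mouse as a block (edgeR adjusted p = 1.0 for both). Without that block 2 members were called, and with 1 batch left out 6 to 9.

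In glia, Kcnma1 differed between strains in each of the 3 large clusters, with CAST/EiJ lowest in macrophages and astrocytes and NOD/ShiLtJ highest in oligodendrocytes. In macrophages the 4 A/J mice were at 884, 624, 593 and 568 CPM and the 129S1/SvImJ mice at 717, 557, 671 and 683. CAST/EiJ was at 19.02, 37.4, 33.5 and 10.6 CPM and PWK/PhJ at 23.2, 62.8, 24.2 and 55.03. All mice of CAST/EiJ and PWK/PhJ lay below all mice of the other 6 strains, of which C57BL/6J was lowest at 201 ± 43.1 CPM (edgeR adjusted p of the strain term = 1.6e-33). In astrocytes Kcnma1 ran from 110.2 ± 26.9 CPM in CAST/EiJ to 382 ± 37.6 in 129S1/SvImJ (1.5e-12). In oligodendrocytes it was highest in NOD/ShiLtJ, at 138, 106, 89.03 and 124 CPM, above the other 28 mice (10.5 to 83.2 CPM with a median of 36.00; 2e-20). The interaction with Drd1+ neurons, a test added after the data were seen, called Kcnma1 for macrophages, astrocytes and oligodendrocytes (edgeR adjusted p = 5.2e-53, 2.4e-11 and 1.6e-13). The summed projection neuron markers had strain means of 695 to 965 CPM in macrophages, 671 to 915 in astrocytes and 704 to 791 in oligodendrocytes.

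**Figure D5:**
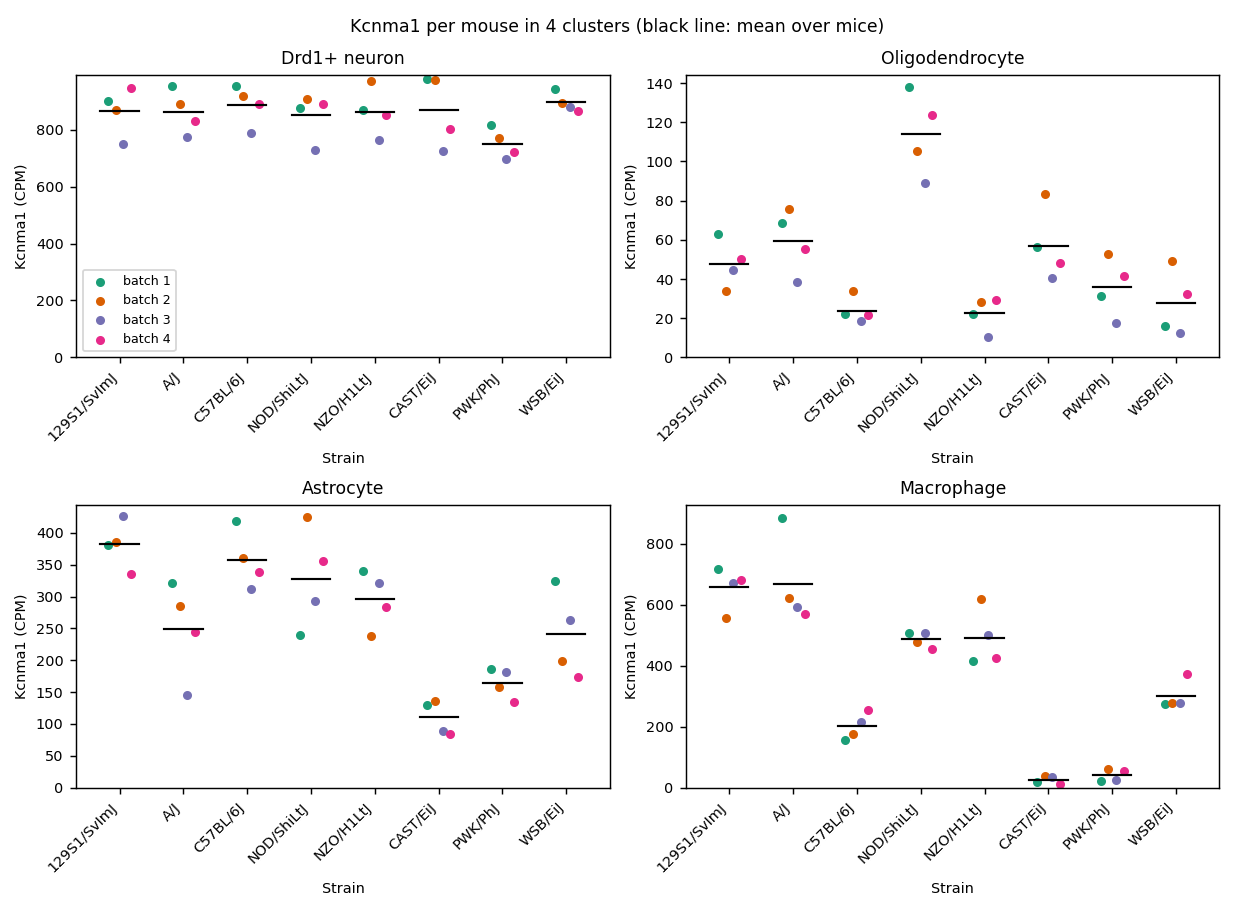
Kcnma1 level (CPM, linear axes from 0) of each mouse by strain in 4 clusters, coloured by batch, with the mean over mice as a black line. Strain means in Drd1+ neurons lie between 751 and 896 CPM, CAST/EiJ and PWK/PhJ are lowest in macrophages and astrocytes, and NOD/ShiLtJ is highest in oligodendrocytes.

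Macrophages had 2 further calls, both of members that passed the filter through few mice, Kcnc2 in 4 and Kcnk12 in 7 of 32, so their differences follow from how they entered and are given with no p. Kcnc2, in neurons a fast-spiking channel, was at 139, 119, 155 and 101 CPM in NZO/H1LtJ and at 0 to 38.03 CPM in the other 28 mice, with no count in any NOD/ShiLtJ or PWK/PhJ mouse. The interneuron markers in that cluster summed to 136 ± 37.04 CPM in NZO/H1LtJ and 108 to 194 over all strains. Kcnk12, a leak subunit, ran from 26.1 ± 18.8 CPM in PWK/PhJ to 139 ± 40.7 in NOD/ShiLtJ. Kcnk13, tested in all 32 mice of this cluster at 193 to 331 CPM over strain means, was not called (edgeR adjusted p = 0.068).

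In oligodendrocytes 3 Kcna genes were called. Kcna2 ran from 36.9, 42.1, 21.2 and 52.7 CPM in A/J to 96.4, 105, 103 and 122 in NZO/H1LtJ, without overlap between these strains. Kcna1 was highest in CAST/EiJ, at 584 ± 87.6 CPM, and lowest in WSB/EiJ, at 216 ± 100.4. Kcna6 was also highest in CAST/EiJ, at 205 ± 25.8 CPM, above all other mice, as in Drd1+ neurons. The edgeR adjusted p of these was 3.6e-14, 3.3e-06 and 7.1e-09. Kcnc2 was at 27.4, 54.2, 96.2 and 48.1 CPM in CAST/EiJ and 0 to 26.4 CPM with a median of 3.63 in the others, and it passed the filter in 5 mice, so a difference follows from how it entered. The summed interneuron markers moved with it in part, with 289.6 ± 24.8 CPM for CAST/EiJ, 232 ± 39.4 for PWK/PhJ and 149.8 to 166 in the other 6 strains, and their part in the result was not tested. Kcnj10 was highest in CAST/EiJ (edgeR adjusted p = 9.2e-06), at 154 ± 36.3 CPM against 87.99 ± 12.3 in NOD/ShiLtJ.

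In astrocytes the leak channels Kcnk1, Kcnk2 and Kcnk10 were called. Kcnk1 was at 72.4, 63.8, 54.04 and 66.99 CPM in A/J and 193, 204, 231 and 296 in NOD/ShiLtJ, without overlap, while in Drd1+ neurons its strain means were 35.8 to 43.8 CPM and not called (0.33). Kcnk2 ran from 45.1 ± 15.6 CPM in 129S1/SvImJ to 162 ± 56.4 in NZO/H1LtJ, and Kcnk10 from 16.9 ± 5.66 in PWK/PhJ to 85.6 ± 30.8 in C57BL/6J. Kcnk13 ran from 1.71 ± 2.19 CPM in WSB/EiJ to 51.1 ± 24.01 in CAST/EiJ, and it passed the filter in 4 mice, so a difference follows from how it entered. Kcnj3 was at 12.6, 0, 10.1 and 3.35 CPM in PWK/PhJ, below the other 28 mice (14.7 to 152 CPM with a median of 64.8), and highest in NOD/ShiLtJ at 119.7 ± 36.6. Kcnip1 was at 88.4, 69.9, 80.5 and 36.9 CPM in PWK/PhJ and at 0.594 ± 1.19 in C57BL/6J, and it passed the filter in 8 mice, with the same limit. Kcnn2 ran from 285 ± 90.1 CPM in NZO/H1LtJ to 1068 ± 248 in 129S1/SvImJ, and Kcnq3 from 55.5 ± 24.2 in PWK/PhJ to 470.1 ± 85.9 in 129S1/SvImJ. The uptake channel Kcnj10 ran from 106 ± 11.6 CPM in A/J to 185 ± 44.1 in NOD/ShiLtJ. The edgeR adjusted p of the strain term was 1e-19 for Kcnk1, 3.3e-17 for Kcnj3, 1.5e-07 for Kcnn2, 1.5e-06 for Kcnq3 and 0.0067 for Kcnj10, whose call was lost without batch 1 or batch 2.

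Whether these patterns differ from those of Drd1+ neurons was tested by the interaction in edgeR with the mouse as a block, added after the data were seen. It called 13 of 59 members for oligodendrocytes, 18 of 58 for astrocytes and 9 of 55 for macrophages, where 16.9%, 11.4% and 8.21% of all genes were called. For oligodendrocytes these included Kcna2 (edgeR adjusted p = 3.4e-07) and Kcna1 (0.00064, lost in 1 of 5 alternatives at 0.29). For astrocytes they included Kcnk1 (1.8e-17) and Kcnj3 (1.2e-15). Only 6 of the 13 calls for oligodendrocytes, 10 of the 18 for astrocytes and 1 of the 9 for macrophages were of members that passed the glial cluster's own filter in at least 50% of the mice. Nothing is read from the other calls, which include Kcnc2 for oligodendrocytes and macrophages, Kcnip1 and Kcnk13 for astrocytes and Kcnk12 for macrophages. The count for macrophages fell to 3 without batch 1 and to 5 without batch 4.

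In the rarer Drd1+ neuron_2, 5 markers of eccentric projection neurons summed to 3071 ± 111 CPM (mean ± SD over batches), against 272 ± 8.57 in Drd1+ neurons. The sum was 2218 ± 506 CPM in Unknown, 737 ± 95.9 in Polydendrocyte/Oligodendrocyte and 691 ± 145 in Nxph1+ interneurons, and it does not separate the genes. In Drd1+ neuron_2, Kcnn2 ran from 151 ± 39.1 CPM in NZO/H1LtJ to 403 ± 87.1 in 129S1/SvImJ (edgeR adjusted p = 7.7e-09). Kcnj3 ran there from 276 ± 57.3 CPM in NZO/H1LtJ to 624 ± 76.00 in NOD/ShiLtJ (6.9e-07). In Nxph1+ interneurons Kcnt1 was called, from 61.7, 74.9, 38.5 and 56.9 CPM in NZO/H1LtJ to 168, 158, 159 and 163 in A/J (edgeR adjusted p = 0.019). NZO/H1LtJ was thus the lowest strain for Kcnt1 here as in Drd1+ neurons, but the call was lost when any 1 batch was left out (up to 0.28). In Polydendrocyte/Oligodendrocyte, with 27 mice, Kcnip1 ran from 54.1 ± 82.1 CPM in C57BL/6J to 389 ± 185 in PWK/PhJ. It passed the filter there in 8 of 27 mice, so a difference follows from how it entered and no p is given. The 8 interneuron markers summed to 1246 ± 282 CPM in this cluster and 3242 ± 706 in Nxph1+ interneurons (mean ± SD over batches). Their part in the Kcnip1 level was not tested. Libraries of these clusters were small, with median totals of 125768 counts in Nxph1+ interneurons and 59127 in Polydendrocyte/Oligodendrocyte, against 3011720 in Drd1+ neurons.

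A list of 17 partners of potassium channels and related hyperpolarization-activated channels gave the wider pathway. The strain term called 9 of the 12 tested in Drd1+ neurons (61.7% of all genes) and 8 of 10 in Drd2+ neurons (55.9%). It called 6 of 8 in oligodendrocytes (34.8%) and in Drd1+ neuron_2 (17.3%), 1 of 6 in astrocytes (21.5%) and 1 of 3 in macrophages (24.8%). In Nxph1+ interneurons, endothelium and Polydendrocyte/Oligodendrocyte edgeR called 0 of 7, 0 of 8 and 0 of 5 (1.53%, 3.23% and 1.24% of all genes), and 2, 3 and 1 of them had an unadjusted p under 0.05. Of the Kcnd partners, Dpp10 was highest in WSB/EiJ, at 632, 659.7, 499.5 and 622 CPM in Drd1+ neurons, above the other 28 mice (231 to 475 CPM with a median of 336), and Dpp6 ran from 701 ± 101 in 129S1/SvImJ to 898 ± 95.97 in A/J. Cntnap2, which gathers Kcna channels along axons, was lowest in NOD/ShiLtJ, at 2952, 2944, 2628 and 2829 CPM, below the others (2972 to 5036 CPM with a median of 3795). The edgeR adjusted p of these was 2.3e-06 for Dpp10, 7.7e-06 for Dpp6 and 1.3e-11 for Cntnap2. Amigo1, a partner of Kcnb channels, was tested and not called (0.45).

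How the reads were counted bears on some members. Of the 78, 38 overlap another RefSeq gene, among them Kcnq5, Kcnip3, Kcnip4, Kcnn2, Kcnma1, Kcnb2, Kcnh7, Kcnk2 and Kcna6, and the strand used in counting is not given in the sources used here. Kcnip2, Kcnt1, Kcnc2, Kcnj3, Kcnk1 and Kcnh5 overlap none. Reads of all 8 strains were counted on 1 build, and the part of sequence differences between strains in these levels was not tested.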

How the data were processed

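RNA and open chromatin were measured in nuclei of frozen striatum from 32 mice, pooled in 4 batches, each with 1 mouse of each of 8 strains. Per the submitters' processing notes, the tools were bcl2fastq 2.20.0.422 and Cell Ranger ARC 2.0.0 and the build mm10 (GRCm38), and the deposited values are raw counts of unique molecular identifiers per gene and barcode. The deposited table of nuclei gives other, categorical values, and per the deposited column descriptions the authors called each nucleus's strain with Demuxlet from RNA and from ATAC, filtered on quality, removed doublets with DoubletFinder and named the clusters. Nuclei with a cluster name were used, and the strain calls from RNA and ATAC were identical in all of them. The list of accessible regions, deposited as other values with no signal, was used for overlap with promoters (at least 1 base). The peak caller is not given in the sources used here.

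Counts were summed per mouse and cluster (libraries of at least 10 nuclei, clusters with at least 3 mice of every strain, 9 of 18). Strain was tested with edgeR 4.0.16 in R 4.3.3 (filterByExpr by strain, TMM, robust quasi-likelihood, strain and batch as terms, 7 degrees of freedom) and Benjamini-Hochberg adjustment over all genes of the cluster, called under 0.05. The batch pairs the mice by design, so it was kept as a block, and the interaction of strain and cluster had the mouse as a block. Strain levels are CPM scaled by TMM, and cluster levels are CPM of the cluster's total per batch. Log2 ratios within a mouse used a prior count of 2. Library totals ran from 1710451 to 9416806 counts in Drd1+ neurons and from 27325 to 365425 in macrophages, which limits the latter. The fits were tested on simulated data.

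Members and lists were chosen with earlier results of these data known. Besides the members' summary, genes were named by rule: up to 3 members per cluster with the largest ratio to the second cluster, the called members with the largest F (12 in Drd1+, 8 in Drd2+, 4 each in oligodendrocytes and astrocytes, 3 in each other cluster), 2 per strain contrast, 5 for the interaction and 5 with the smallest F. Some genes are counted in totals and are otherwise not reported here. Any further member or partner with strain values was named after its values were seen. Alternatives were DESeq2 1.42.0 and its size factors, no filter, at least 20 nuclei, no block and each batch left out. The interactions with glial clusters were added after the data were seen.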

Additional observations from a re-analysis of the deposited data

Results flagged for a closer look

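Of 96 groups of 4 mice examined, the strain levels of the named members in Drd1+ neurons, 2 held a mouse far from the other 3, where chance gives about 1 in 20. Kcnip3 in WSB/EiJ was at 209 CPM in batch 1 and at 276, 285 and 286 CPM in the other batches. Kcnn2 in WSB/EiJ was at 194 CPM in batch 3 and at 167, 168 and 170 CPM in the others.

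The interaction of strain and cluster passed the threshold for 12 members in Drd2+ against Drd1+ neurons (edgeR, adjusted over all genes). The adjusted p was 9.6e-09 for Kcnq5, 8.2e-08 for Kcnb2, 0.000101 for Kcng1, 0.00085 for Kcnt2, 0.0017 for Kcnip4, 0.0046 for Kcnd2 and 0.0051 for Kcnk2. It was 0.0055 for Kcnh7, 0.011 for Kcnq3, 0.018 for Kcnj3, 0.022 for Kcnma1 and 0.025 for Kcnk13. Of 8 alternatives, the call was lost in 0 for Kcnt2 and Kcng1, in 1 for Kcnq5 and Kcnb2 and in 2 for Kcnd2. It was lost in 3 for Kcnh7, Kcnip4, Kcnj3, Kcnq3 and Kcnk13, in 4 for Kcnk2 and in 5 for Kcnma1.

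In glia the interaction with Drd1+ neurons, added after the data were seen, passed for named members in 3 clusters (edgeR). In oligodendrocytes the adjusted p was 1.6e-13 for Kcnma1, 3.4e-07 for Kcna2 and 0.00064 for Kcna1. In astrocytes it was 1.8e-17 for Kcnk1, 1.2e-15 for Kcnj3 and 2.4e-11 for Kcnma1. In macrophages it was 5.2e-53 for Kcnma1. Kcnc2 in oligodendrocytes and macrophages, Kcnip1 in astrocytes and Kcnk12 in macrophages passed the filter through 5, 4, 8 and 7 mice, so their interactions are left out here. The call of Kcna1 was lost in 1 of 5 alternatives.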

How the results depend on the processing

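Of 459 alternative values of 53 single-member results (named members' strain terms and contrasts of 1 strain, without the interactions and the members with the smallest F), 446 kept their direction and their side of the threshold, 13 lost the call, in 6 results, and 0 reversed. The 53 include Kcnc2 in oligodendrocytes and macrophages, Kcnk12 in macrophages, and Kcnip1 in astrocytes and in Polydendrocyte/Oligodendrocyte. These members passed the filter there in a minority of mice, so nothing is read from how their calls held. Of 177 alternative counts of called members, 154 stayed within 1.5 times the count reported. With no filter on low counts, the strain term called 17 members in oligodendrocytes, 6 in macrophages, 5 in Nxph1+ interneurons, 8 in endothelium and 4 in Polydendrocyte/Oligodendrocyte. DESeq2 called 3 in endothelium. Without the replicate block, 0 were called by edgeR in endothelium and in Polydendrocyte/Oligodendrocyte, 8 differed in C57BL/6J, and 2 had a strain effect that differed between Drd1+ and Drd2+ neurons. With 1 batch left out, the counts ran from 0 to 1 in Nxph1+ interneurons, 1 to 3 in endothelium and 0 to 1 in Polydendrocyte/Oligodendrocyte. They ran from 9 to 14 for A/J and 5 to 6 for WSB/EiJ. For the interaction of strain and cluster they ran from 6 to 9 for Drd1+ against Drd2+ neurons. For macrophages against Drd1+ neurons they ran from 3 to 6, below the 9 called with all batches. The lowest values came without batch 2 for A/J, batch 4 for WSB/EiJ, batch 3 for Drd1+ against Drd2+ neurons and batch 1 for macrophages against Drd1+ neurons. Among the 53 results, the calls lost were those of Kcnt1 in Nxph1+ interneurons, Kcnq5 in endothelium, Kcnip1 in Polydendrocyte/Oligodendrocyte, Kcnj3 in 129S1/SvImJ and in A/J, and Kcnd3 in WSB/EiJ, and the cause was not tested. Over all members, 11 of 45 calls in Drd1+ and 10 of 38 in Drd2+ neurons were lost in at least 1 alternative. Of the 5 interactions of strain and cluster named by rule, those of Kcnq5, Kcnb2, Kcnh7 and Kcnk2 lost the call in 1, 1, 3 and 4 of 8 alternatives, and that of Kcnt2 in 0. Of the members with the smallest F in Drd1+ neurons, Kcnma1 lost its call in 4 and Kcnn3 in 1 of 9 alternatives. Rare clusters had small libraries, so their low counts do not show that members there did not differ.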
